A study of Rattus norvegicus with 18 samples.

Results

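The genes described here encode 8 antioxidant enzymes of the rat: the superoxide dismutases Sod1 and Sod2, catalase (Cat), the glutathione peroxidases Gpx1 and Gpx4, and the peroxiredoxins Prdx1, Prdx2 and Prdx6. A list of 9 genes was searched, and every probe set whose single gene symbol in the platform annotation was on the list was taken. Txn1, thioredoxin, had no such probe set and was not analysed here. The 8 genes are part of 4736 named on the array. The search found 16 of the 8740 probe sets that are not controls, and 12 of the 16, from all 8 genes, were bright enough to be tested. The other 4 are described by their values only.

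The tissue was the suprachiasmatic nucleus (SCN), the paired nucleus of the hypothalamus that serves as the mammalian master clock, from adult male Long-Evans rats. The rats were kept in alternating light and dark and were then left in constant darkness, and tissue was taken every 6 h at 0, 6, 12, 18, 24, 30, 36 and 42 h. Time 0 was circadian time (CT) 0, the expected time of lights-on, so that CT 0, 6, 12 and 18 were each met on both days. RNA of 5 rats was pooled at each time point, while the labels give 45 rats in all, more than these 8 pools hold, and do not say what the array marks a and b stand for. No group differed in genotype or treatment. Each pool was read on a rat GeneChip, a 1-colour oligonucleotide array, in a first run of 10 arrays and a technical repeat of 8 arrays. At 24 h and 36 h the first run held arrays marked a and b, which were taken here to read the same pool. The replicate is the pool, with 1 pool per time point, so p-values measure the spread of pools around a fitted curve, part of which is array error. In pooled tissue, fewer cells of a type and less RNA per cell cannot be told apart.

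These enzymes act in sequence. Superoxide dismutases turn superoxide into hydrogen peroxide, Sod1 in the cytosol with copper and zinc and Sod2 in mitochondria with manganese. Catalase, a heme enzyme of peroxisomes, splits hydrogen peroxide into water and oxygen, whereas the glutathione peroxidases reduce peroxides with glutathione and most peroxiredoxins do so with thioredoxin. Many genes of this system are known targets of the transcription factor Nrf2, which binds a short DNA motif called the antioxidant response element, and the oxidation state of peroxiredoxin proteins is known to follow a daily cycle in several cell types. The arrays measured transcripts and not that protein state.

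The motif core, TGACNNNGC on either strand, is shown first because it is the sequence most often tied to this gene group. RefSeq promoter windows of the GRCr8 build were at hand for 8 of the 9 listed genes (10 windows, since Gpx4 has several annotated starts), but not for Prdx6. The 250 bases before the start held the core in 2 of the 10 windows, those of Sod2 and Prdx1, against 10.1% of 33469 windows of all genes. The matches lie at chr1:50050195-50050203 for Sod2 (a gene on the minus strand) and chr5:135383771-135383779 for Prdx1 (on the plus strand). Each is printed 5′ to 3′ along its gene with 15 bases on either side, and the capitals mark the match, in both genes the reverse complement of the core.
Sod2: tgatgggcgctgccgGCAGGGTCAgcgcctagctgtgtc
Prdx1: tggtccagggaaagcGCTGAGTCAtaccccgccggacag
The match began 35 bases before the annotated start in Sod2 and 135 bases before it in Prdx1. The E-box CACGTG, the motif bound by the clock proteins CLOCK and BMAL1, was in none of the 10 windows and in 5.59% of all windows. A match describes letters in this window only, and no match says nothing of the factor.

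Some features of the arrays bear on every value below. The deposited intensities had been scaled to nearly the same trimmed mean on all arrays, while the median was 136.5 to 152.3 in the first run and 107.9 to 127.6 in the repeat. The ratio of 3′ to 5′ signal of Gapdh was 8.55 to 35.2 in the first run and 14.3 to 24.8 in the repeat. For beta-actin it was 17.0 at 0 h and 20.9 at 18 h in the first run, but 4.47 and 2.02 at these times in the repeat. The part of this uneven ratio in the differences below was not tested. The b arrays stood apart: over the 4370 tested probe sets the log2 intensities of 24 h b correlated at 0.945 with 36 h b but at 0.905 with 24 h a, and 36 h b correlated at 0.866 with 36 h a. Among the first-run arrays, 12 h, 18 h and 36 h b had the strongest hybridisation controls. The main results that rest on these arrays are also given without them. Of the SCN neuropeptides, Avp lay between 1226 and 2204 and Sst between 4492 and 7656 in the 8 pools, whereas Vip was dim (mean 49.0) and the SCN transcription factor Lhx1 was near the floor (14.9).

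Sod1 varied little over the 2 days in its brightest probe set. The pools of M21060_s_at had intensities of 8269, 9524, 10207 and 9142 on the first day, in the order of the samplings. The second day gave 9476, 9573, 8443 and 8031. The highest pool was 1.27 times the lowest, at CT 12 on the first day and CT 18 on the second. The fitted 24-h amplitude, the distance on the log2 scale from the mean of the curve to its peak, was 0.09 ± 0.09 (SE, n = 8 pools; limma adjusted p = 0.899).

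The other Sod1 probe sets gave different courses. Y00404_s_at lay between 2112 at 30 h and 2836 at 6 h, with an amplitude of 0.08 ± 0.10 (limma adjusted p = 0.932). M25157mRNA_i_at was 841, 902, 370 and 742 on the first day and 994, 1078, 816 and 799 on the second. Its 12 h pool stood below all others, and its difference between CT 12 and CT 0 was −0.73 ± 0.34 on the log2 scale (limma adjusted p = 0.569). That low value came from the first-run array at 12 h, at 89.1, where the other first-run arrays read 309.5 to 770.5 and the repeat arrays 1153 to 1922. Without the 12 h pool the difference was −0.16, and in the repeat alone it was 0.15.

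Sod2 was read by Y00497_s_at, with pool intensities of 268, 195, 206 and 285 on the first day and 249, 223, 445 and 343 on the second. Both CT 6 pools lay below both CT 18 pools, and the fitted difference between CT 6 and CT 18 was −0.59 ± 0.31 (95% interval −1.27 to 0.10; limma adjusted p = 0.968, unadjusted 0.0865). The sign was the same in the first run (−0.46) and in the repeat (−0.71). The high pool at 36 h came from array b, which read 1973 where 36 h a read 286.0, the repeat read 263.3 and the other 15 arrays read 147.2 to 365.0. The second day was higher than the first by 0.37 ± 0.20 on the log2 scale (limma adjusted p = 0.997), and by 0.17 ± 0.14 without arrays b. Without arrays b the Sod2 difference between CT 6 and CT 18 stayed at −0.59, since no b array was taken at those phases.

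Catalase had the widest course of the 8 genes on the log2 scale. The pools of its tested probe set, rc_AA926149_g_at, read 1216, 910.0, 459 and 1184 on the first day and 1439, 993, 824 and 1179 on the second. The order was the same on both days for the extremes: CT 12 was lowest and CT 0 highest. The fitted amplitude was 0.57 ± 0.14 with a peak at CT 22.9, a 2.22-fold swing from trough to peak. The difference between CT 12 and CT 0 was −1.11 ± 0.27 (geometric means 615 and 1323, 2 pools each; 95% interval −1.71 to −0.50). Neither passed after adjustment over 4370 probe sets (limma adjusted p = 0.746 for the rhythm and 0.456 for the difference; unadjusted 0.00602 and 0.00229). Without the 12 h pool the difference was −0.67 and the amplitude 0.37, and with any single pool left out they ranged from −1.35 to −0.67 and from 0.37 to 0.69. Without the 3 arrays with strong controls they were −2.12 and 1.09. That fit drops the first-run readings of 751 at 12 h and 3298 at 36 h b, which lay above the repeat's 280.4 and 709. Its 12 h and 18 h values thus came from the repeat alone. An exact permutation test, which moves the 8 pools among the times, gave p = 0.00317 for the rhythm, the smallest that 315 arrangements allow, and it was 1 of 12 such tests.

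The 2 runs disagreed on catalase. In the first run the arrays at 0, 6, 12 and 18 h read 470.1, 804, 751 and 706, those at 30 and 42 h read 831 and 936, and the pairs a and b read 347 and 3212 at 24 h and 278 and 3298 at 36 h. Array b was thus 9.25 times array a at 24 h and 11.9 times at 36 h. In the repeat the arrays read 3144, 1029.6, 280.4 and 1986 on the first day and 1962, 1187, 709 and 1485 on the second. The trough at CT 12 and the high value at CT 0 were those of the repeat, where the difference between CT 12 and CT 0 was −2.48 ± 0.44 (limma adjusted p = 0.180), −3.49 on the first day and −1.47 on the second. In the first run it was 0.27 ± 0.38, and 0.18 without arrays b. The exact permutation p of the rhythm was 0.886 in the first run and 0.00635 in the repeat, with 8 pools in each. In a fit of the single arrays with run as a term the amplitude was 0.48 ± 0.31. The correlation between arrays of a pool was −0.04 over all probe sets in that fit. Arrays were thus weighed nearly as if independent, and this SE is not one over pools.

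**Figure D1:**
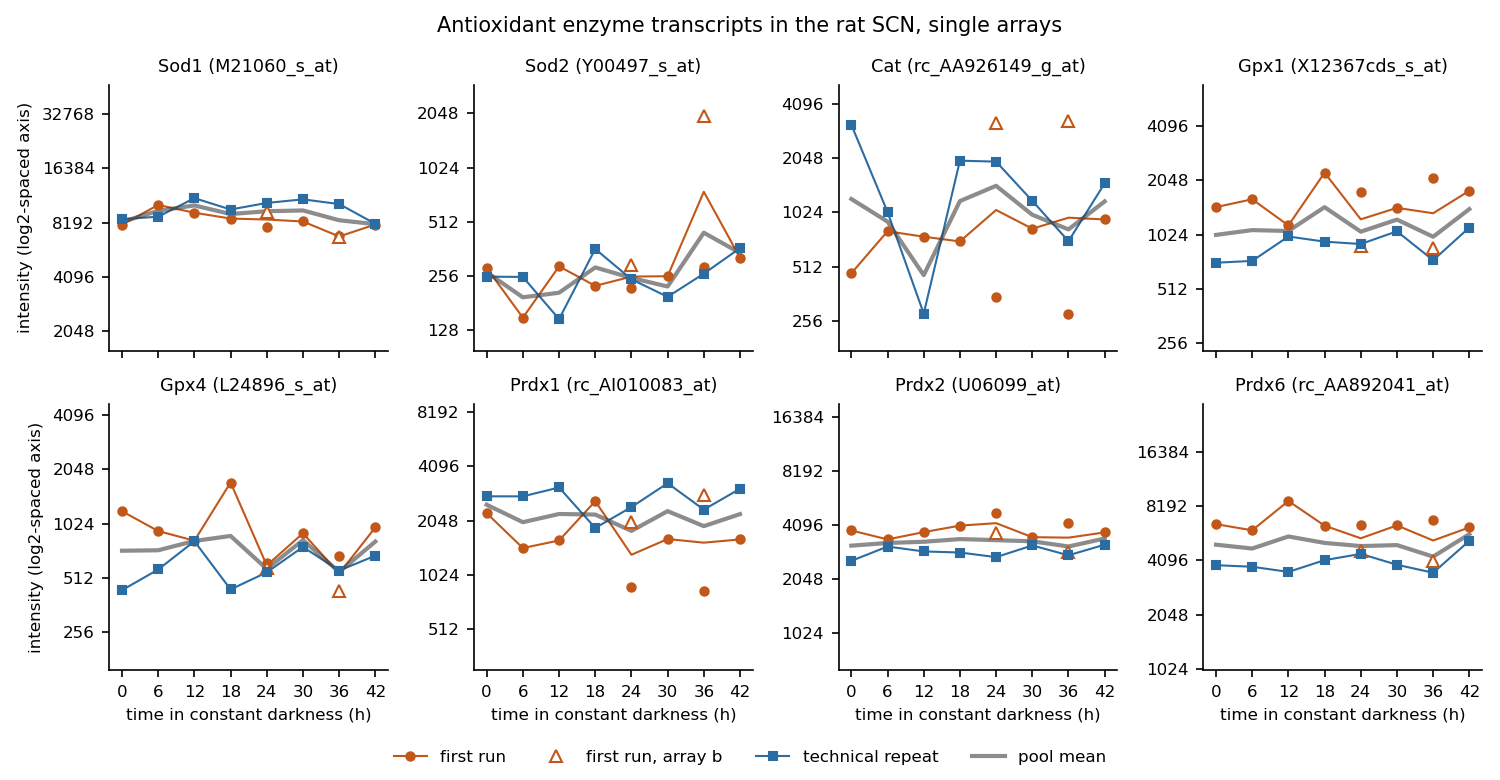
Intensity of the brightest probe set of each of the 8 genes on single arrays (log2-spaced axis, the same fold range in every panel) against hours in constant darkness. Circles are first-run arrays, open triangles the b arrays among them, squares the technical repeat, thin lines the mean of a run and the thick line the pool mean. Catalase goes from 3144 to 280.4 between 0 and 12 h in the repeat, where the first run goes from 470.1 to 751, and the triangles lie far from the circles of the same hour for Cat, at 36 h for Sod2, and for Prdx1 and Gpx1.

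Red blood cells are rich in catalase, and other cell types of the block could also differ between pools. The summed intensity of the 4 tested red cell genes (Hbb, Hbb-b1, Alas2 and Slc4a1, of 9 named and 5 on the array) was 16676 and 8329 at CT 0 and 11217 and 10914 at CT 12. The 2 CT 0 pools, which had the highest catalase, thus had the highest (0 h) and the lowest (24 h) red cell sum. The tested astrocyte genes (8 of 10) summed to 52698 and 56055 at CT 0 and to 62122 and 58919 at CT 12. The oligodendrocyte genes (7 of 8) summed to 37749 and 37567 at CT 0 and to 37571 and 33690 at CT 12, and the pan-neuronal genes (3 of 8) to 2400 and 2546 against 1697 and 2385. Median differences between CT 12 and CT 0 were −0.05, 0.09, −0.31 and −0.27 for these lists. They were 0.48 for the SCN peptides (3 tested genes, 2 at an unadjusted p below 0.05, beside 8.67% of all tested probe sets) and −0.20 for vessel genes (2 tested). The medians were 0.06 for microglia and immune genes, −0.04 for choroid plexus and ependyma and −0.06 for neighbouring hypothalamic neurons. Astrocyte Gja1 was at or near the floor in all pools (mean 12.3), as was neuronal Syt1 in most (mean 21.6). The part of cell composition in the catalase values was not tested.

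Gpx1, a selenium enzyme of cytosol and mitochondria, was highest at CT 18 in both tested probe sets, a difference that did not pass the test. X12367cds_s_at read 1020, 1085, 1073 and 1455 on the first day and 1064, 1241, 997 and 1419 on the second. CT 18 was the highest phase on both days, and its 2 pools lay above all 6 others. The difference between CT 6 and CT 18 was −0.31 ± 0.22 (95% interval −0.79 to 0.18; limma adjusted p = 0.968). X07365_s_at read between 650.0 at 24 h and 1127 at 42 h, and its 2 CT 18 pools also lay above the rest, with a difference of −0.17 ± 0.26. In the repeat alone these differences were −0.21 and −0.03. There X12367cds_s_at read 936 at 18 h, below 1000 at 12 h, and X07365_s_at read 485 at 18 h, below 537 at 0 h and 564 at 6 h. At 42 h, the other CT 18 sampling, the repeat read 1122 and 700.1, its highest values in these probe sets. The pools of 24 h and 36 h include the low b arrays. At 36 h, array a read 2102 and 2129 where array b read 862 and 846. The first-run array at 18 h, one of the 3 with strong controls, read highest of all arrays in both probe sets (2263 and 2553). Without the 3 arrays the differences were −0.20 and 0.0025, without the 18 h pool −0.17 and −0.0087, and without the 42 h pool −0.20 and 0.0055.

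Gpx4, the enzyme that reduces peroxides within membrane lipids and holds off ferroptosis, read 723, 727, 819 and 874 on the first day and 573, 828, 551 and 813 on the second with L24896_s_at. CT 12 was high on the first day and lowest on the second. The amplitude was 0.07 ± 0.13 (limma adjusted p = 0.968), and the 95% interval of the difference between CT 12 and CT 0, −0.51 to 0.64, left room for changes of either sign. Its first-run array at 18 h read 1732, against 440.8 in the repeat.

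Among the peroxiredoxins, Prdx2 varied least over the pools. Prdx2, a cytosolic peroxidase abundant in neurons and red cells, read between 3117 at 36 h and 3451 at 42 h, a 1.11-fold range. Its difference between CT 12 and CT 0 was −0.02 ± 0.16, with a 95% interval from −0.39 to 0.34. Prdx1, a cytosolic peroxidase that is also a known Nrf2 target, read between 1794 at 24 h and 2507 at 0 h, both at CT 0. Its amplitude was 0.03 ± 0.10, although the first-run arrays alone ran from 836 at 36 h a to 2849 at 36 h b. Prdx6, which uses glutathione and also acts as a phospholipase, read between 4297 at 36 h and 5731 at 42 h with rc_AA892041_at. AF014009_at of the same gene read between 195 at 36 h and 291 at 18 h. Neither differed between phases after adjustment (limma adjusted p of the rhythm 0.920 and 0.832).

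Over the 12 tested probe sets, 0 passed the rhythm test after adjustment with limma, and 1 (Cat) at an unadjusted p below 0.05, against 0% and 6.36% of all 4370 tested. For CT 12 against CT 0 the counts were 0 and 1 (Cat, lower), against 0% and 8.67% of all (4.49% lower). For CT 6 against CT 18 they were 0 and 0, against 0.0229% and 4.26%, and for the second day against the first 0 and 0, against 0% and 3.96%. The median amplitude was 0.10 over the 12 and 0.16 over all probe sets. The difference between CT 6 and CT 18 was below 0 in 10 of the 12 probe sets, where 52.9% of all were, with a median of −0.15 beside −0.02. Of these 10 differences, 7 were smaller than their SE. In the first run alone 9 of the 12 were below 0, beside 50.6% of all, and in the repeat alone 7 of the 12, beside 55.7%. The 4 pools of these phases did not overlap in 8 of the 12 probe sets, lower at CT 6 in 6 of them (Sod2, Cat, both of Gpx1, Prdx2 and Prdx6 AF014009_at), beside 31.4% and 17.3% of all. Pools at CT 12 and CT 0 did not overlap in 3 (Cat, Sod1 M25157mRNA_i_at and Prdx6 AF014009_at, all lower at CT 12), beside 44.8% and, for lower, 21.6% of all. Probe sets of a gene share transcripts and all 12 share the arrays, so these counts are descriptions.

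**Figure D2:**
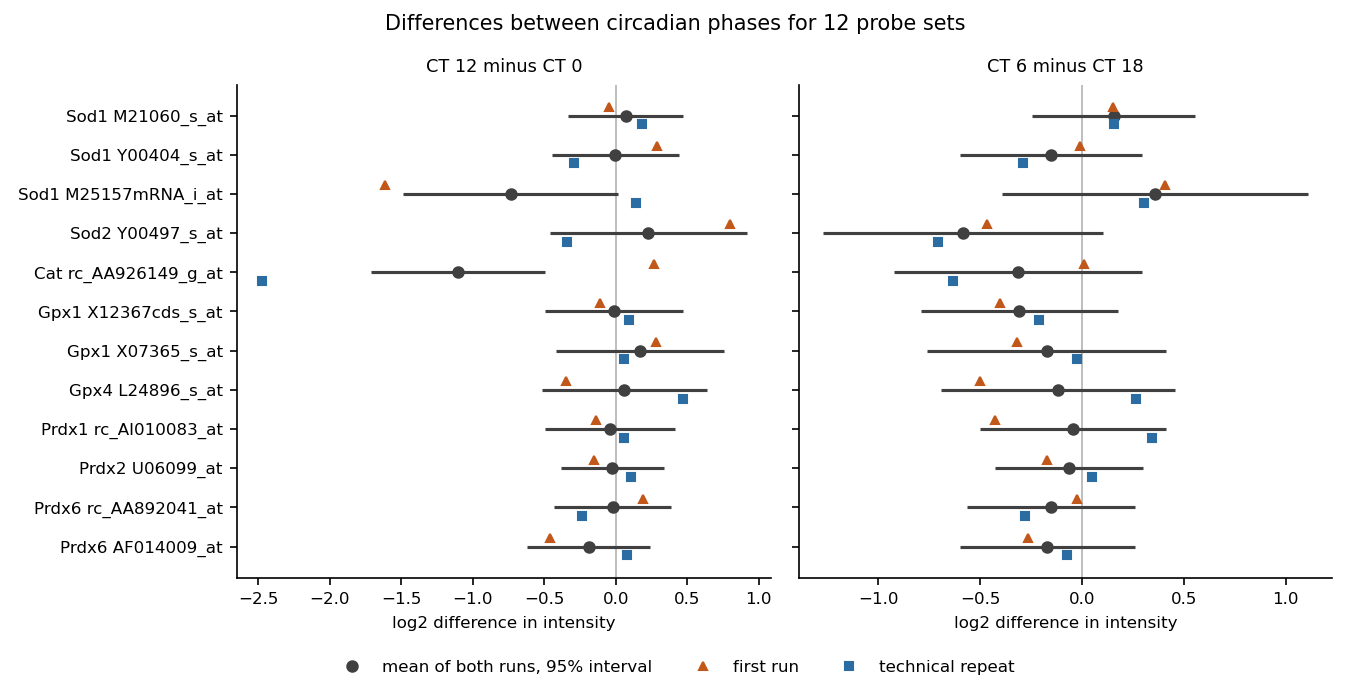
Log2 difference in intensity between CT 12 and CT 0 (left) and between CT 6 and CT 18 (right) for the 12 tested probe sets, with the mean of both runs and its 95% interval (dark), the first run (triangles) and the technical repeat (squares). The interval lies clear of 0 only for Cat at left, −1.71 to −0.50, where the first run is at 0.27 and the repeat at −2.48.

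Between the days, the largest differences were those of Sod1 M25157mRNA_i_at (0.44 ± 0.21), Sod2 (0.37 ± 0.20) and Cat (0.30 ± 0.18), all higher on the second day and none past the threshold (limma adjusted p = 0.997 for each). The b arrays belong to the second day. Without them the values were 0.37, 0.17 and −0.12, so that the catalase difference changed sign. For Sod1 M25157mRNA_i_at the value was 0.19 without the 12 h pool. No probe set had all 4 pools of one day above all 4 of the other, and 1.88% of all probe sets did.

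The difference between the runs was larger in size than those between phases and days for most of these probe sets, with Cat, Sod2 and Sod1 Y00404_s_at as the exceptions. After adjustment with limma, 7 of the 12 probe sets differed between the technical repeat and the first run (2 higher and 5 lower in the repeat), against 48.4% of all tested probe sets (20.9% higher and 27.5% lower). Gpx1 X07365_s_at averaged 1646 in the first run and 503 in the repeat, lower in 8 of 8 pools (−1.71 ± 0.16, limma adjusted p = 2.47e-05). Gpx1 X12367cds_s_at, Prdx6 rc_AA892041_at and Prdx2 were also lower in 8 of 8 pools, by −0.76, −0.65 and −0.36. Gpx4 was lower in 7 of 8 (−0.62 ± 0.22), a call lost without the 0, 6, 18 or 42 h pool (limma adjusted p up to 0.0897), without arrays a or with no level filter. Sod1 M25157mRNA_i_at rose from 419 to 1475 (1.82 ± 0.30), higher in 8 of 8 pools, and Prdx1 from 1706 to 2678 (0.65 ± 0.17), higher in 7 of 8. Without arrays a the Prdx1 difference was 0.46 (limma adjusted p = 0.0746) and 5 of the 12 probe sets were called. In all, 5 of the 12 probe sets moved in the same direction in 8 of 8 pools, beside 31% of all.

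For CT 12 against CT 0, both days of the first run and both days of the repeat lay on opposite sides of 0 in 4 of the 12, beside 10.7% of all, and for CT 6 against CT 18 in 1 of the 12, beside 9.89%.

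The directions of the run differences depend in part on the scaling. Setting every array to the same median moved the median run difference of all tested probe sets from −0.06 to 0.24, and the called probe sets changed from 913 higher and 1201 lower to 1679 higher and 594 lower. Among the antioxidant probe sets, 6 were then called higher and 3 lower. The 3 still lower were both of Gpx1 and Prdx6 rc_AA892041_at, while Prdx2 (−0.06) and Gpx4 (−0.33) were no longer called, and Sod1 M21060_s_at (0.50), Sod1 Y00404_s_at (0.35), Cat (0.90) and Prdx6 AF014009_at (0.55) were called higher. Probe sets of Sod1 and of Prdx6 thus did not share a run difference as deposited: for Sod1 they were 0.21, 0.05 and 1.82, and for Prdx6 −0.65 and 0.26.

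**Figure D3:**
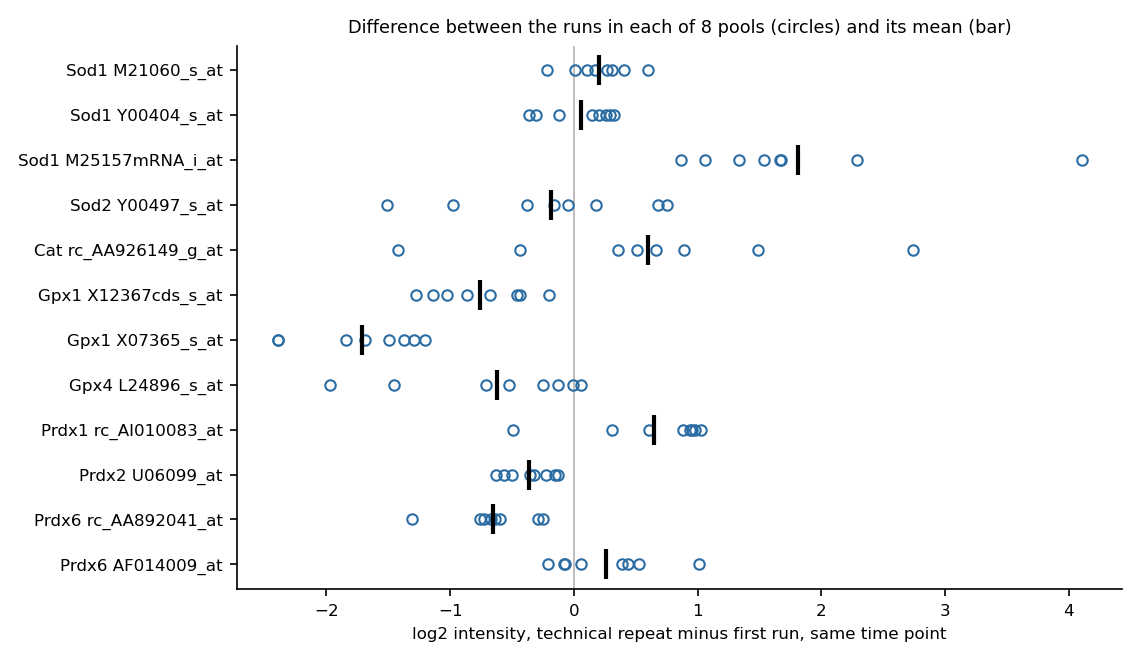
Log2 intensity of the technical repeat minus the first run at the same time point for the 12 tested probe sets, with 8 circles for the 8 pools and a bar for their mean. All circles of both Gpx1 probe sets, Prdx2 and Prdx6 rc_AA892041_at lie left of 0 and all of Sod1 M25157mRNA_i_at right of 0, and the widest spreads are those of Sod1 M25157mRNA_i_at, Cat and Sod2.

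Arrays a and b of the first run differed in the same direction at 24 h and 36 h in 11 of the 12 probe sets, as did 75.2% of all. The difference passed 2-fold at both times in 4 of the 12, against 8.4% of all, with 1 array on each side and no test. Beside Cat these were Prdx1 (b over a 2.31 and 3.41), Gpx1 X07365_s_at (a over b 2.45 and 2.52) and Gpx1 X12367cds_s_at (a over b 2.00 and 2.44). For Gpx1 X07365_s_at, arrays b at 786 and 846 lay below the other 8 first-run arrays (1318 to 2553) and above the repeat (342 to 700.1).

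Run-to-run error was also set against the spread between pools. The error of a pool mean, taken as the SD of the run difference over the 8 pools divided by 2, had a median of 0.22 over the 12 probe sets, and the SD between the 8 pool means had a median of 0.19. The SD between pools exceeded the run-to-run error in 4 of the 12 (Sod2, both of Gpx1 and Sod1 Y00404_s_at), beside 58.5% of all tested probe sets. Since the SD between pool means contains that error, an SD slightly above it does not show that the pools differed. For Cat the SD between pools was 0.51 and the run-to-run error 0.62. In the order of its 8 pools, 12 h, 36 h, 6 h, 30 h, 42 h, 18 h, 0 h and 24 h, only the step from 12 h to 36 h was larger than that error. For Prdx2 the values were 0.05 and 0.09, and for Sod2 0.40 and 0.39, both with array b at 36 h (1973) included.

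**Figure D4:**
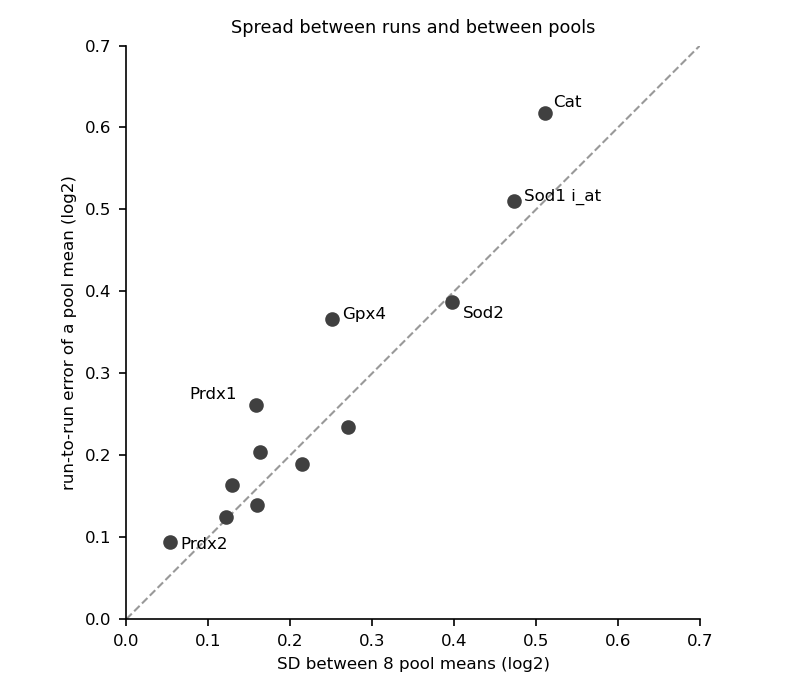
Run-to-run error of a pool mean (SD of the run difference divided by 2) against the SD between the 8 pool means, both on the log2 scale, 1 point per tested antioxidant probe set, with a dashed line where they are equal. Points above the line, 8 of 12 with Cat the highest at 0.62, have pool means that spread less than the runs do.

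The 4 probe sets below the level filter were Cat M11670_at (mean 52.1) and rc_AA926149_at (41.3), Gpx1 M21210_i_at (14.8) and Prdx6 Y17295cds_s_at (30.6), where the filter was at 121. Gpx1 M21210_i_at was at the floor of 12.1 on 10 of the 18 arrays. Cat M11670_at was also lowest at 12 h, 29.7, and next lowest at 36 h, 40.9, but it was highest at 6 h, 73.2. Its low reading at 12 h lay in the first run (11.6), where the repeat read 72.8, the opposite of the tested catalase probe set. At 36 h its low reading lay in the repeat (18.6), where first-run arrays a and b read 100 and 80.7. The pools of Cat rc_AA926149_at were lowest at 30 h, 23.5, and highest at 42 h, 68.8, with 33.7 at 12 h and 48.2 at 36 h. Its repeat array at 36 h read 132.9, its highest. The tested probe sets nearest to the filter were Prdx6 AF014009_at (232) and Sod2 (267).

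Other genes of the antioxidant system were taken from 7 lists of 82 genes, of which 48 were on the array and 38 were tested. With limma, 0 of the 38 passed adjustment in any of the 4 comparisons over time. At an unadjusted p below 0.05 there were 2 for the rhythm and for CT 12 against CT 0 (the same 2), 0 for CT 6 against CT 18 and 2 for the day. Over all tested probe sets the shares were 6.36% for the rhythm, 8.67% for CT 12 against CT 0, 4.26% for CT 6 against CT 18 and 3.96% for the day. Gsta1, an alpha-class glutathione transferase, was at −0.83 ± 0.27 between CT 12 and CT 0 (limma adjusted p = 0.514), and its other probe sets were at −0.49 and −0.52. Gclm, the modifier subunit of the enzyme that limits glutathione synthesis, was at −0.64 ± 0.28 (limma adjusted p = 0.563), but 0.22 ± 0.40 with its dimmer probe set. Both genes were below 0 in each run: Gsta1 was at −0.69 in the repeat and −0.96 in the first run, and Gclm at −0.77 and −0.52, the last being −0.10 without arrays b.

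Between CT 12 and CT 0, 17 of the 38 genes were below 0 and 21 above, with a median of 0.09 beside 0.01 for all probe sets. Of the 13 tested glutathione transferases, 6 were below 0 and 7 above, with Gstm2 at 0.60 ± 0.28 and Mgst1 at 0.32 ± 0.18. Peroxide removal held Prdx3, the mitochondrial peroxiredoxin, at −0.41 ± 0.20, and Gpx3, the secreted glutathione peroxidase, at 0.16 ± 0.26. The selenium carrier Selenop was at −0.44 ± 0.24. Between CT 6 and CT 18, Hmox1, the inducible heme oxygenase, was at 0.56 ± 0.27 and Gpx3 at −0.49 ± 0.26, with Gstk1 at 0.56 ± 0.33, Me1 at 0.32 ± 0.18 and Gclm at −0.49 ± 0.28. Single pools weighed heavily here: with a pool left out, Hmox1 ranged from 0.24 to 0.74, Gpx3 from −0.80 to −0.18, Gstk1 from 0.25 to 0.89, Me1 from 0.21 to 0.41 and Gclm from −0.72 to −0.06. Between the days, Nqo1, a quinone reductase and well-known Nrf2 target, was at 0.50 ± 0.19 and Aldh2, a mitochondrial aldehyde dehydrogenase, at −0.42 ± 0.15 (limma adjusted p = 0.997 for both), with the same sign in each run. Nfe2l2, which encodes Nrf2, was at 0.37 ± 0.18, Txnip at 0.28 ± 0.13, Gstk1 at −0.42 ± 0.20 and Cp at 0.33 ± 0.18. Dimmer probe sets were not counted. They gave the other sign between CT 6 and CT 18 for Gclm (0.79 ± 0.40 with S65555_g_at) and Gstk1 (−0.28 ± 0.27 with rc_AI105137_s_at). Those of Me1 were at −0.23 ± 0.28 (M26594_at), 0.10 ± 0.28 (rc_AI171506_at) and 0.0057 ± 0.21 (rc_AI171506_g_at) there. Me1, at 0.02 between the days with its brightest, was at 0.48 ± 0.14 with rc_AI171506_at (limma adjusted p = 0.997) and at 0.23 and −0.20 with the others. Also between the days, Nfe2l2 was at 0.16 ± 0.18 with rc_AI177161_at and Gstk1 at −0.03 ± 0.20 with rc_AI105137_s_at. Between CT 12 and CT 0, Nfe2l2 was at −0.30 ± 0.29 with its brightest and −0.71 ± 0.25 with rc_AI177161_at (limma adjusted p = 0.514). Gstm1 was there at 0.21 ± 0.18 with its brightest but −0.59 ± 0.26 with X04229cds_s_at and −0.42 ± 0.29 with H32189_s_at. Gsto1 was at 0.19 ± 0.21 and, with AB008807_at, −0.16 ± 0.18. Gstp1 was at −0.04 ± 0.22 and, with X02904cds_s_at, −0.80 ± 0.31. The dimmer probe sets of Gstm2 and Gstt2 stayed above 0, at 0.25 ± 0.23 and 0.23 ± 0.20.

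**Figure D5:**
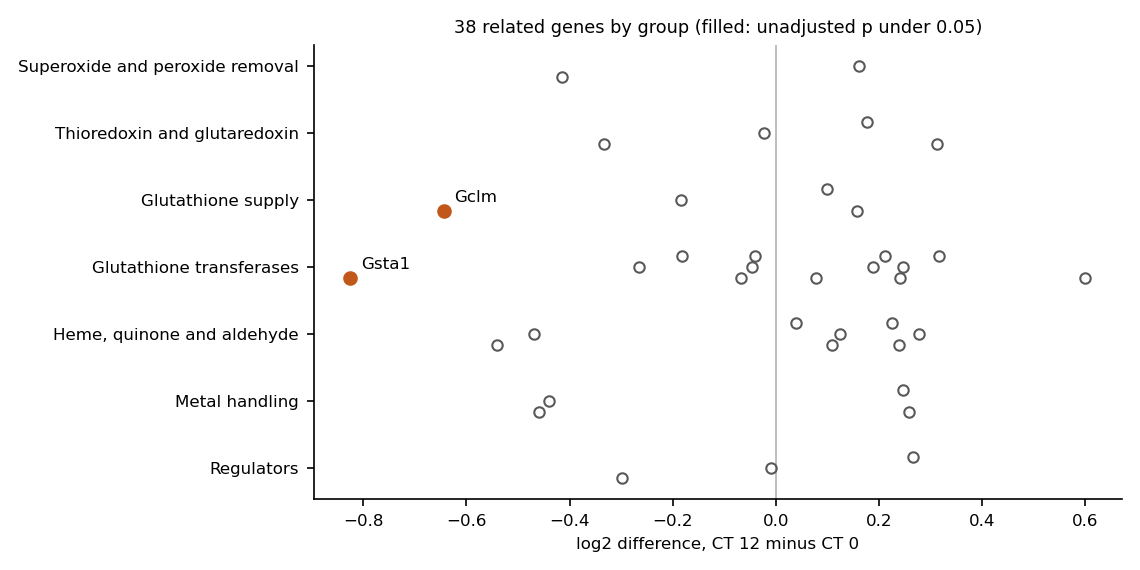
Log2 difference in intensity between CT 12 and CT 0 for the 38 tested genes of the wider antioxidant system, 1 point per gene (brightest probe set), in 7 groups. Filled points, Gsta1 at −0.83 and Gclm at −0.64, had an unadjusted p below 0.05, and the points of each group lie on both sides of 0.

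The course of catalase over the 8 pools was compared with those of 2812 other genes as a description, since all share the arrays. The most alike were Zfp148 (Pearson r = 0.981), Litaf (0.946) and Capn1 (0.944). For Sod1 M21060_s_at they were Atp5if1 (0.959), Phf7 (0.917) and Pc (0.860). With 8 pools and 2812 genes, high values are reached readily.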

How the data were processed

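The authors deposited linear intensities per probe set, scaled per array before deposit as the near-equal trimmed means show. How probes were summarised is not given in the sources used here. Values below 12.1, the 10th percentile, were set to that floor and log2 was taken; arrays a and b were averaged, then the runs, giving 8 pools. The 59 control probe sets were left out, and probe sets with a mean above the median (121) were tested, 4370 in all, from 2820 genes. Symbols came from the platform annotation (7006 probe sets with 1 symbol, 308 with several, 1426 with none), and a probe set shared by Gpx4 and other genes was not used. Of the 7006, 6985 were found in RefSeq's gene table and 0 symbols changed.

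A 24-h cosine and sine were fitted with limma 3.58.1 in R 4.3.3 (5 residual and 5.13 prior degrees of freedom), with a day term for the day comparison and a paired fit of the 8 pools for the runs. P-values were Benjamini-Hochberg adjusted over all 4370, with a threshold of 0.05. The exact permutation tests are two-sided. The fits were tested on simulated data. A gene was named by its brightest probe set, lists gave up to 6 genes per comparison by p, and the most alike genes were sought for the member with the smallest rhythm p and the one with the highest mean. The members, lists and tests were chosen with earlier results of these data known. Alternatives covered normalization, filter, floor, variance model, arrays a or b, each pool, each run and other designs. That both arrays of a pair, a and b, carry RNA of 1 pool is an assumption, not a label. The number of arrays limits the precision.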

Additional observations from a re-analysis of the deposited data

Results flagged for a closer look

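The runs read the same pools. In 5 of 24 comparisons of a gene's probe set and phase contrast, both days of the first run lay on one side of 0 and both days of the repeat on the other; the difference itself was not tested. These were 4 of 12 probe sets for CT 12 minus CT 0, beside 10.7% of all tested, and 1 of 12 for CT 6 minus CT 18, beside 9.89%. For Gpx4 the repeat exceeded the first run by 0.81 in CT 12 minus CT 0 (−0.35 in the first run, 0.47 in the repeat) and by 0.77 in CT 6 minus CT 18 (−0.50 and 0.26). For CT 12 minus CT 0 the gap was 1.76 in Sod1 M25157mRNA_i_at (−1.61 and 0.15), 0.25 in Prdx2 (−0.15 and 0.10) and −0.58 in Sod1 Y00404_s_at (0.29 and −0.29). Of 24 groups of 4 pools examined for a pool far from the rest, 0 had one; chance gives about 1 in 20.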

How the results depend on the processing

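Under every alternative tried, 0 of the 12 antioxidant probe sets passed adjustment in a comparison over time (lowest limma adjusted p 0.180, Cat in the repeat between CT 12 and CT 0). With 1 pool per time point and array error in each pool, small changes were not detectable. Of 84 differences for named probe sets, 34 were smaller than their SE, and a change of sign was not read as a reversal there (88 of their values changed sign). Among the other differences, 10 values changed sign. Cat between CT 12 and CT 0 became 0.27 in the first run and 0.18 there without arrays b, and between CT 6 and CT 18 it became 0.0082 in both. Cat between the days became −0.12 without arrays b and −0.35 in the first run without them. Sod1 M25157mRNA_i_at between CT 12 and CT 0 became 0.15 in the repeat, and Gpx4 between the days 0.21 there. Gstm2 between CT 6 and CT 18 became −0.16 in the first run, with or without arrays b. The exact permutation p of Cat was 0.886 in the first run. The cause of these changes was not tested.

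The count of antioxidant probe sets at an unadjusted p below 0.05 was 1 for CT 12 against CT 0. It was 2 with median scaling, the 75th-percentile filter, a pseudocount, or limma's trend and robust options, 0 without arrays a, and 1 to 2 with a pool left out. With the day as a replicate block it was 2, and with single arrays and run as a replicate block 0. For the rhythm it was 1, with 2 without arrays b or without the 3 arrays with strong controls, 0 without arrays a, in the first run (with or without b) or with run as a replicate block, and 1 to 3 with a pool left out. For CT 6 against CT 18 it was 0, with 1 without arrays b or without the 3 arrays, and 0 to 1 with a pool left out. For the day it was 0, with 1 under median scaling, the 75th-percentile filter, trend and robust, or the first run without arrays b, 2 without arrays a, and 0 to 2 with a pool left out.

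Adjusted calls over all probe sets for the rhythm went from 0 to 2 with the 75th-percentile filter or trend and robust, and to 1 in the repeat or with run as a replicate block. For CT 12 against CT 0 they went from 0 to 1, 1 and 2 with that filter, trend and robust, and the repeat. For CT 6 against CT 18 the single call became 0 with no filter, without arrays a, in either run, in the first run without arrays b, without the 3 arrays, with the day as a replicate block, and with any pool left out. For the day 0 became 1 in the first run without arrays b, and 0 to 1 with a pool left out. Run calls were 2114, then 1210 with the 75th-percentile filter, which tests fewer probe sets, 2953 with no filter, which tests more, and 1852 to 2016 with a pool left out. The first run without arrays b was chosen after seeing the data.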
